A study of Mus musculus with 11 samples.

Results

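The genes described are 10 heat shock proteins and chaperones measured by RNA sequencing in the hippocampus of 11 mice: Hspa1a, Hspa1b, Hspa5, Hspa8, Hsph1, Hsp90aa1, Hsp90b1, Dnajb1, Hspb1 and Bag3. They were taken by symbol from the 38293 genes of the deposited count tables, and all 10 were among the 20589 genes with at least 10 counts over the 11 mice, so none was lost to the filter on low values. The mice were F1 offspring, wildtype and 14 weeks old, of 129S6/SvEv dams and C57BL/6J sires. In the 6 control mice (CD, 3 males and 3 females) the dam had eaten a diet with 2.3 mg folic acid per kg before conception, and in the 5 FD mice (2 males and 3 females) the dam's diet before conception held 40 mg per kg. All dams received the control diet from mating on, so the offspring themselves never ate the supplemented food, and the labels do not say which mice were littermates. The p-values below therefore measure the spread between these 11 mice. The comparison asks whether the diet of the dam before conception left a difference in chaperone mRNA in the hippocampus of adult offspring.

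Chaperones bind unfolded or partly folded proteins and help them to fold, to assemble or to be degraded. Hsp70 proteins hold a client in a cycle of ATP binding and hydrolysis, J-domain proteins bring the client and start hydrolysis, and nucleotide exchange factors end the cycle. In the cytosol, heat shock factor 1 switches on the inducible members when unfolded protein accumulates, by binding heat shock elements, which are inverted repeats of the unit GAA. The endoplasmic reticulum has chaperones of its own, which the unfolded protein response induces, in part through the endoplasmic reticulum stress element.

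Between 11737554 and 44447006 reads per mouse were assigned to genes. A further 7.008 to 11.029% of the reads in each table had aligned uniquely but matched no counted feature. Such reads may lie outside genes or in introns, which these totals do not tell apart. Markers of hippocampal neurons were all present, with a summed level of 9085 to 9368 CPM (counts scaled to the size of the library) in CD and 8530 to 9713 CPM in FD mice. Among them were Prox1, a dentate gyrus marker, at 128 to 163 CPM, and Camk2a, a kinase of excitatory neurons, at 4510 to 5260 CPM. Markers of the choroid plexus, which lies next to the hippocampus, summed to 39.1 to 95.8 CPM in CD and 33.1 to 48.3 CPM in FD mice, with the highest value in CD female 3. Those of meningeal fibroblasts summed to 70.8 to 175.4 CPM in CD and 106.3 to 253.2 CPM in FD mice. Their part in the results was not tested. In whole tissue, fewer cells of a type and less RNA per cell cannot be told apart.

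In GENCODE M21 on GRCm38, the cytosolic Hsp70 genes were Hspa1a (ENSMUSG00000091971) at chr17:34969190-34972156 on the minus strand, Hspa1b (ENSMUSG00000090877) at chr17:34956436-34959238 on the minus strand and Hspa8 (ENSMUSG00000015656) at chr9:40800984-40810087 on the plus strand. The Hsp110 and Hsp90 genes were Hsph1 (ENSMUSG00000029657) at chr5:149614287-149636376 on the minus strand, Hsp90aa1 (ENSMUSG00000021270) at chr12:110690605-110702728 on the minus strand and, for the endoplasmic reticulum, Hsp90b1 (ENSMUSG00000020048) at chr10:86690209-86705509 on the minus strand. The endoplasmic reticulum Hsp70 gene was Hspa5 (ENSMUSG00000026864) at chr2:34771970-34777547 on the plus strand. The partners of Hsp70 were Dnajb1 (ENSMUSG00000005483) at chr8:83608193-83612653 on the plus strand and Bag3 (ENSMUSG00000030847) at chr7:128523616-128546981 on the plus strand, and the small heat shock protein was Hspb1 (ENSMUSG00000004951) at chr5:135887919-135889563 on the plus strand.

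The promoters of 2 pairs of genes are shown because each pair is set beside its expression further on. Hspa1a and Hspa1b encode nearly the same inducible Hsp70 and lie next to each other on the minus strand of chromosome 17. The 250 bases before their RefSeq start sites (GRCm38.p6, chr17:34972157-34972406 for Hspa1a and chr17:34959239-34959488 for Hspa1b, both printed 5′ to 3′ on the minus strand) were identical at 247 positions, or 98.8%. Capitals mark a heat shock element of 2 units, GAANNTTC.
Hspa1a: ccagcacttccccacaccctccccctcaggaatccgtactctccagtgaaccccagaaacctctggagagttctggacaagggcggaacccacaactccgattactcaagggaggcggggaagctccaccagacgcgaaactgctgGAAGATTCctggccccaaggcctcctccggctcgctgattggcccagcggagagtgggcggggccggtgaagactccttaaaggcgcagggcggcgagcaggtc
Hspa1b: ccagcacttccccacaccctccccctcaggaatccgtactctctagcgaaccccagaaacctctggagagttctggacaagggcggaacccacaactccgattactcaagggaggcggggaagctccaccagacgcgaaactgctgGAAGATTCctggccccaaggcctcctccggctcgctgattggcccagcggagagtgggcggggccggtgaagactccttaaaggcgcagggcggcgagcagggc
Counted from 1 at the 5′ end of these windows, the differences from Hspa1a to Hspa1b were C44T, T47C and T249G, and none lay in the element.

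The other pair, Hspa5 and Hsp90b1, encodes the abundant Hsp70 and Hsp90 of the endoplasmic reticulum. Capitals mark the endoplasmic reticulum stress element, CCAAT and CCACG with 9 bases between them on either strand, in stretches of 30 bases: chr2:34772020-34772049 on the plus strand for Hspa5, and chr10:86705632-86705661 (distal) and chr10:86705527-86705556 (proximal) on the minus strand for Hsp90b1.
Hspa5: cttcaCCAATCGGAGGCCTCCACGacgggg
Hsp90b1 distal: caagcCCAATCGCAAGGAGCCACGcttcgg
Hsp90b1 proximal: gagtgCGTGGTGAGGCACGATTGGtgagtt
The element of Hspa5 began 65 bases before its RefSeq start, and those of Hsp90b1 began 212 and 107 bases before theirs. The same letters were found in the 250 bases before the start of 35 of 27025 mouse genes, or 0.13%, and in no other member. RefSeq windows were at hand for 8 of the 10 members, all but Hspa8 and Hsp90aa1. A heat shock element of 2 units (GAANNTTC or TTCNNGAA) was found in 4 of these 8 (Hspa1a, Hspa1b, Hsph1 and Hspb1) and in 14.5% of all genes. The same search with 3 units found no member and 0.514% of all genes. CCAAT alone, on either strand and also counted where it is part of the longer element, was found in 6 of the 8 members and in 37.5% of all genes, and TGACGTG, a core bound by ATF6, likewise on either strand, in Hspa5 and 1.85% of all genes. These are matches of letters and not shown to be bound.

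Levels of different genes were compared as CPM per kilobase of exon. The endoplasmic reticulum chaperone Hsp90b1 was highest, with a mean of 72.3 CPM per kb over the 11 mice (65.1 to 78.9), followed by Hspa5 with 56.5 (47.4 to 68.6), Hsph1 with 51.9 (46.5 to 56.1) and Hsp90aa1 with 50.7 (46.7 to 53.1). These 4 formed the top of the order, and their ranges overlapped from each to the next, although Hsp90b1 was above Hspa5 in all 11 mice. Hspa8 followed with 35.3 CPM per kb (29.9 to 40.4), Dnajb1 with 14.8 (12.7 to 17.9) and Bag3 with 4.29 (3.78 to 5.00). Each of these 3 was separated from the genes above and below it without overlap. At the bottom were Hspa1b with 1.25 CPM per kb (0.913 to 1.53), Hspa1a with 0.737 (0.518 to 1.05) and Hspb1 with 0.622 (0.416 to 0.886), again with overlap between neighbours. Hspa1b was above Hspa1a in all 11 mice, whereas Hspa1a was above Hspb1 in 8 of 11. The genes at the bottom are ones that heat induces strongly, but Hsp90aa1, the inducible cytosolic Hsp90, was among the top 4. Since reads with several alignments were left out, the order depends on how much of a gene is shared with copies. Per kilobase of sequence not shared with other genes, a measure chosen after seeing the data, Hsp90aa1 came first with 96.5 CPM per kb, Hsp90b1 followed with 80.1 and Hspa8, with 58.2, moved up to the level of Hspa5, while Hspa1b, Hspa1a and Hspb1 stayed lowest.

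**Figure D1:**
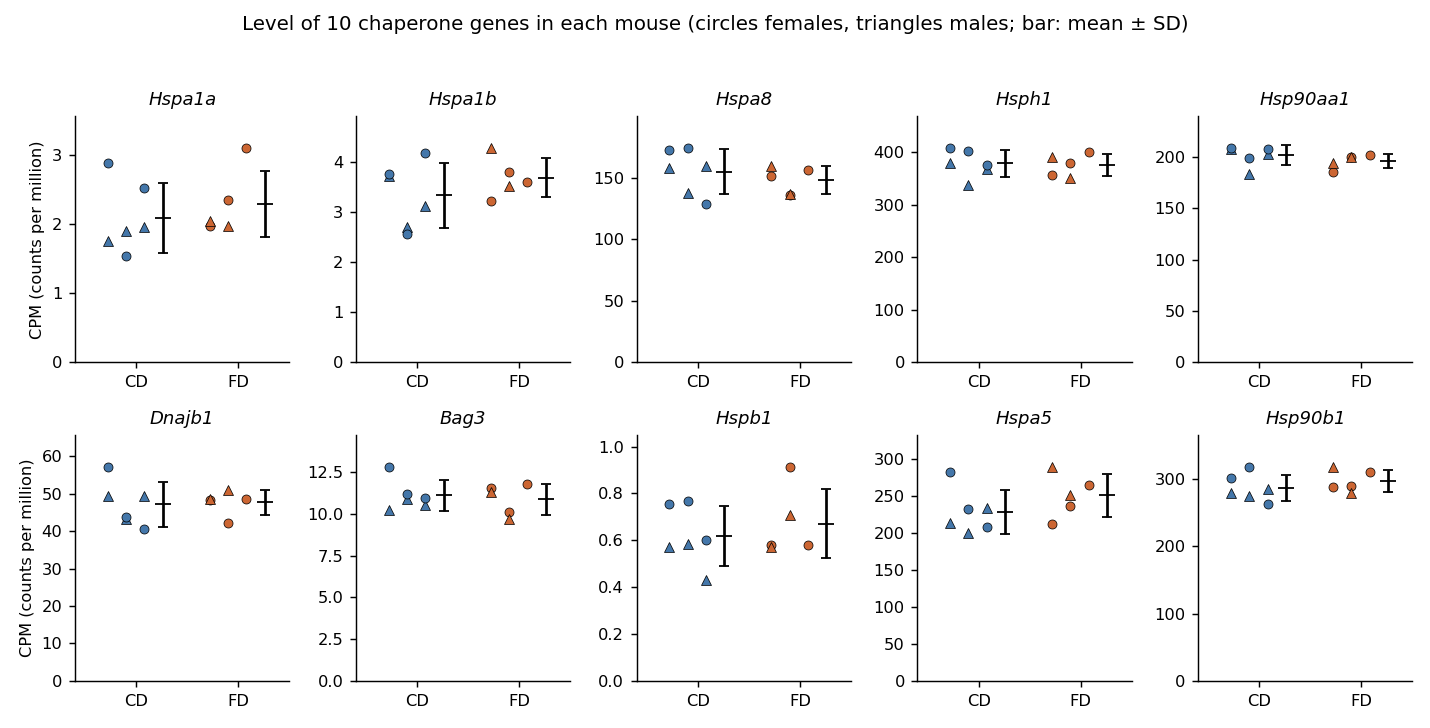
Level of each of the 10 genes in CPM in CD and FD mice, each gene on its own linear axis from 0, 1 point per mouse (circles females, triangles males), with the mean ± SD of each group beside the points. The CD and FD points overlap for every gene, and the points of Hspa1a, Hspa1b and Hspb1 are spread most widely relative to their level.

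These levels come from reads with a single alignment, and several members have close copies in the genome. The share of 50-base windows of a member's transcripts that also occurred in a transcript of another gene was 66.3% for Hspa1a and 62.3% for Hspa1b. For Hspa1b all of those windows were shared with Hspa1a. The share was 50.1% for Hspb1, mostly with the pseudogene Hsp25-ps1, 47.5% for Hsp90aa1, mostly with the pseudogene Gm12346, and 39.4% for Hspa8, mostly with Gm15459, which was not analysed here. Hsp90b1 shared 9.75% of its windows, chiefly with 1810014B01Rik, which overlaps it on the opposite strand and itself held 997 counts in all. Whether the counting used strand is not given in the sources used here, so reads of these overlapping genes cannot be told apart. Dnajb1 shared 0.412% and Hspa5, Hsph1 and Bag3 shared none. The levels and fold changes of Hspa1a, Hspa1b, Hspb1, Hsp90aa1 and Hspa8 therefore rest on the parts of their transcripts that can be told apart from copies.

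**Figure D2:**
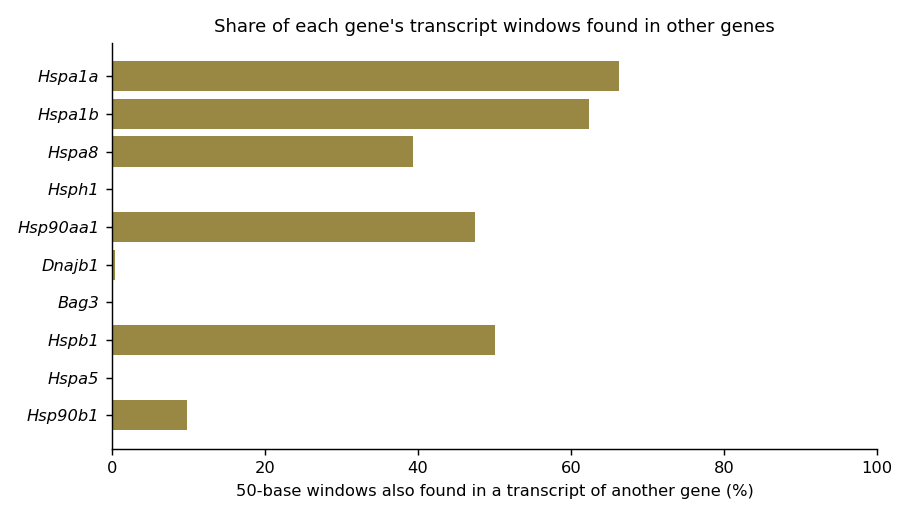
Share (%) of the 50-base windows of each gene's transcripts that also occur in a transcript of another gene. Bars for Hspa1a and Hspa1b pass 60%, whereas Hspa5, Hsph1 and Bag3 have no shared window.

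Comparison of FD and CD mice showed no detectable difference in any of the 10 chaperone genes. By the quasi-likelihood test of edgeR, with p-values adjusted by the Benjamini-Hochberg method over all 20589 genes, none reached an adjusted p of 0.1, against a background of 0.0680% of all genes called (14 genes, or 23 with the replicate block), and all 10 had an adjusted p of 1. No member had an unadjusted p under 0.05, and DESeq2 called none either. The fitted value was higher in FD mice for 6 members and lower for 4, with a median log2 fold change of 0.032 against -0.004 for all genes. CD and FD mice overlapped in all 10 members, whereas 0.505% of all genes showed no overlap. Among the 7 members with a mean of at least 10 CPM, no 95% interval of the log2 fold change reached below -0.23 or above 0.32. For Hspa1a, Hspa1b and Hspb1 the intervals were wider.

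The inducible Hsp70 genes were lowly expressed in both groups. Hspa1a ranged from 1.54 to 2.89 CPM in CD mice with a median of 1.94. In FD mice it was 1.98, 2.36 and 3.11 CPM in females and 2.05 and 1.98 CPM in males. Apart from FD female 3, which was above every CD mouse, the FD mice lay within the CD range. The mean was 2.10 ± 0.51 CPM (SD, n = 6) in CD and 2.29 ± 0.48 CPM (n = 5) in FD mice, from only 18 to 92 reads per mouse. The fitted log2 fold change of FD over CD was 0.11 ± 0.18 (SE), and it turned to -0.04 without FD female 3.

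Hspa1b was somewhat higher than its neighbour, with 2.56 to 4.19 CPM in CD mice and a median of 3.43. FD females had 3.23, 3.81 and 3.60 CPM and FD males 4.28 and 3.54 CPM. CD female 2, CD male 2 and CD male 3 were below all FD mice and FD male 1 was above all CD mice, but the other 3 CD mice lay among the FD mice. The fitted log2 fold change of Hspa1b was 0.12 ± 0.13 (exact permutation p = 0.3052, two-sided). Because the 2 genes share most of their sequence, their counts were also summed, a setting chosen after seeing the data, and the log2 fold change of the sum was 0.12 ± 0.13 with an adjusted p of 1 by edgeR.

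Hspa8, the constitutive cytosolic Hsp70, ranged from 128.5 to 173.8 CPM in CD mice with a median of 158.6. FD females had 151.0, 136.0 and 156.2 CPM and FD males 159.7 and 136.5 CPM. All FD values fell inside the CD range. Its log2 fold change was -0.07 ± 0.08, and the 95% interval ran from -0.23 to 0.10.

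Hsph1, an Hsp110 protein that exchanges the nucleotide of Hsp70, had 338.2 to 407.4 CPM in CD mice (median 377.4). Its values in FD mice were 355.8, 380.3 and 400.0 CPM in females and 390.6 and 351.0 CPM in males, again inside the CD range. The groups were nearly level, with a log2 fold change of -0.01 ± 0.06.

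Hsp90aa1, the inducible cytosolic Hsp90, was the least variable member. It had 183.6 to 208.6 CPM in CD mice with a median of 205.4, and 185.7, 199.6 and 202.5 CPM in FD females and 194.2 and 199.6 CPM in FD males. No FD mouse reached the CD median, while CD male 2 was below every FD mouse. Hsp90aa1 gave a log2 fold change of -0.04 ± 0.05 (exact permutation p = 0.3377). Without CD male 2 the difference in mean log2 CPM was -0.07 and the exact permutation p, unadjusted for the 10 members, was 0.0476 (two-sided, 252 assignments). The edgeR log2 fold change without this mouse was -0.06, and no member was called.

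The partners of Hsp70 and the small heat shock protein gave the same picture. Dnajb1, the J-domain protein that works with inducible Hsp70, had 40.7 to 57.2 CPM in CD mice (median 46.6), and 48.4, 42.2 and 48.7 CPM in FD females and 48.7 and 51.1 CPM in FD males. CD female 1 was highest and CD female 3 lowest, and the FD mice fell between them. Dnajb1 gave a log2 fold change of 0.01 ± 0.08.

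Bag3, an exchange factor that links Hsp70 clients to autophagy, ranged from 10.2 to 12.8 CPM in CD mice (median 10.9). It measured 11.6, 10.1 and 11.8 CPM in FD females and 11.3 and 9.69 CPM in FD males. FD female 2 and FD male 2 were below the lowest CD mouse and CD female 1 was above all others. For Bag3 the log2 fold change was -0.02 ± 0.08.

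Hspb1, a small heat shock protein that holds unfolded clients without ATP, was close to the limit of detection, with 9 to 24 reads per mouse. It had 0.429 to 0.768 CPM in CD mice (median 0.591), and 0.581, 0.914 and 0.580 CPM in FD females and 0.571 and 0.707 CPM in FD males. FD female 2 was above all other mice on 12 reads. The log2 fold change of 0.11 ± 0.23 had a 95% interval of -0.37 to 0.59, so that a difference within it was not detectable at this depth. Hspb1 gave -0.03 when mice of the same sex and number were paired (replicate block).

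In the endoplasmic reticulum, Hspa5 (BiP) had the largest fitted difference of the 10 members. It ranged from 200.3 to 283.0 CPM in CD mice with a median of 223.4. FD females had 212.0, 236.8 and 264.9 CPM and FD males 289.9 and 252.3 CPM. FD male 1 was above all CD mice, but CD female 1 was above the other 4 FD mice. The mean was 228.8 ± 29.8 CPM (SD, n = 6) in CD and 251.2 ± 29.3 CPM (n = 5) in FD mice. The log2 fold change was 0.13 ± 0.09, with a 95% interval of -0.05 to 0.32 and an exact permutation p of 0.2078. It was 0.08 without FD male 1 and 0.20 without CD female 1. With 1 mouse left out, its unadjusted p by edgeR ran from 0.0135, without CD female 1, to 0.395, without FD male 1. Without FD female 1 it was 0.0323, and no member was called in these fits.

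Hsp90b1 (GRP94), which folds a narrower set of secreted and membrane proteins, ranged from 262.3 to 317.3 CPM in CD mice (median 282.5). FD females had 288.0, 289.6 and 311.1 CPM and FD males 318.3 and 279.6 CPM. Again FD male 1 was just above the highest CD mouse and the groups overlapped. For Hsp90b1 the log2 fold change was 0.05 ± 0.06.

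**Figure D3:**
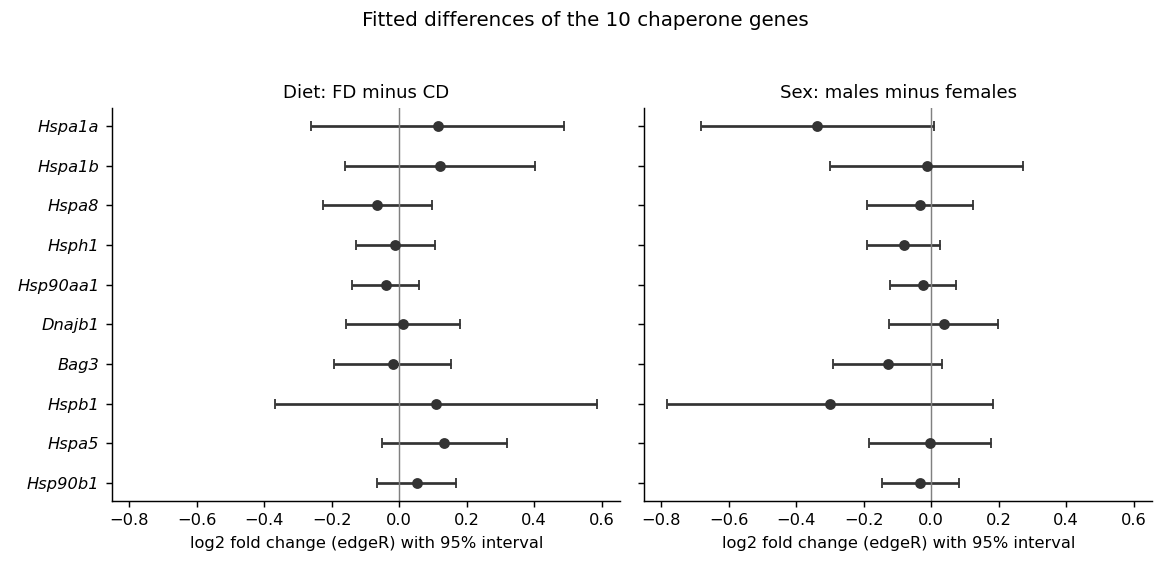
Log2 fold change of each gene from edgeR (points) with its 95% interval (bars), FD minus CD on the left and males minus females on the right, both on 1 scale. All 20 intervals include 0, and those of Hspa1a and Hspb1 are the widest.

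Sex was compared with diet as a covariate, because both groups held males and females. No member passed the threshold, against a background of 6.11% of all genes called (1257 genes, or 18 to 3244 with 1 mouse left out). None had an unadjusted p under 0.05 by edgeR, and DESeq2 called none. DESeq2 gave Hspa1a and Hspb1 no adjusted p, so it could not call them (unadjusted p 0.0936 and 0.372). The fitted value was lower in males for 9 of the 10 members, with a median log2 fold change of -0.033, while 50.9% of all genes tested were lower in males. Hspa1a differed most. The 6 females ranged from 1.54 to 3.11 CPM and the 5 males from 1.75 to 2.05 CPM, so that the males lay inside the female range and were more alike. Its log2 fold change was -0.34 ± 0.16 with an adjusted p of 0.26 by edgeR. Without CD female 2, the lowest of the females, the log2 fold change was -0.43 and the adjusted p 0.0876, and this was the one fit in which a member was called. In that fit 15.8% of all genes were called. Hspa1b, whose promoter is nearly the same, had a log2 fold change of -0.01 ± 0.14, and the difference between the 2 genes was not tested.

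Whether the diet difference depended on sex was tested by an interaction term, which called 0 of 20589 genes (391 had an unadjusted p under 0.05, or 1.9%, and DESeq2 called 0). Hspa5 was the single member with an unadjusted p under 0.05. Hspa5 was 241.2 ± 38.3 CPM (SD, n = 3) in CD females and 237.9 ± 26.4 CPM (n = 3) in FD females, but 216.3 ± 17.3 CPM (n = 3) in CD males and 271.1 ± 26.6 CPM (n = 2) in FD males. In males alone the fitted log2 fold change was 0.34 (unadjusted p = 0.000448 and adjusted p = 0.815 by edgeR), and in females alone it was -0.02. The interaction was 0.35 ± 0.16 on the log2 scale, with an unadjusted p of 0.0414 and an adjusted p of 1 by edgeR, and it rested on 2 FD males. With 1 mouse left out the interaction of Hspa5 ran from 0.22, without CD female 1, to 0.45, without FD male 2.

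The members varied between mice to a different extent. The highest mouse was 1.14 times the lowest for Hsp90aa1, 1.20 times for Hsph1 and 1.21 times for Hsp90b1, but 2.02 times for Hspa1a and 2.13 times for Hspb1. The biological coefficient of variation estimated by edgeR was 0.065 for Hsp90aa1, 0.0752 for Hsp90b1 and 0.0758 for Hsph1, and it was highest for Hspa1a at 0.162. For Hspb1 it was 0.102, below the 0.178 of the trend for genes of its level. The range of Hspb1 also holds the counting noise of 9 to 24 reads per mouse. The median over all genes tested was 0.098. Of the members, 6 of 10 were below the trend for genes of their level, as were 68.6% of all genes.

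Single mice stood out in a pair of members. A mouse was taken to stand apart where its gap to the nearest mouse of its diet group, divided by the range of the group, both in log2 CPM, was above Dixon's critical value at 95%. Of 20 combinations of gene and group, 2 passed, and chance gives about 1 in 20. Hsp90aa1 was low in CD male 2, at 183.6 CPM against a median of 208.0 CPM in the other 5 CD mice, with a gap of 0.634 of the range in log2 CPM. Dnajb1 was low in FD female 2, at 42.2 CPM against a median of 48.7 CPM in the other FD mice, with a gap of 0.714 of the range in log2 CPM. On the linear CPM scale these gaps were 0.619 and 0.695 and neither passed, and with RLE normalization that of Hsp90aa1 passed and that of Dnajb1 did not.

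CD male 2 was the lowest CD mouse for Hspa5 and Hsph1 as well. It was below the mean of the 11 mice in all 10 members, but Bag3 was level with the median of the other CD mice, at 10.91 against 10.92 CPM. Of the 14437 genes that averaged 1 CPM or more, 50.2% were above their mean in it. The opposite held for CD female 1, which was chosen after its values were seen. It was above the mean in all 10 members and had the highest value of all mice for Hsph1, Hsp90aa1, Dnajb1 and Bag3, while 58.3% of all genes were above the mean in it. CD male 2 had the highest share of reads that matched no counted feature, 11.029%, and CD female 1 the lowest, 7.01%.

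Across mice this share and the level of Bag3 moved in opposite directions (Pearson's r = -0.72, permutation p = 0.0118, Spearman's rho = -0.67, permutation p = 0.0274, n = 11 mice). The adjusted p was 0.221 over 30 such relations, so that none passed the correction. Without the 2 mice farthest from the median, which were CD female 1 and CD male 2, r was -0.62, and within the 6 females it was -0.97. The part of this share in the levels of the members was not tested.

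**Figure D4:**
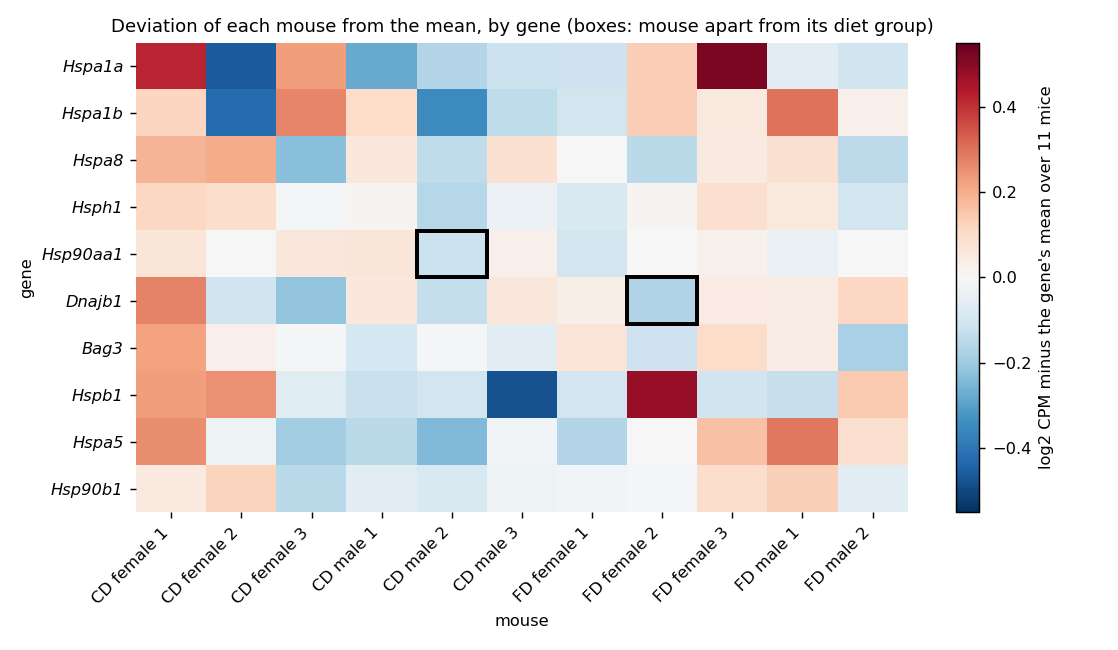
Deviation of each mouse from the mean of the 11 mice in log2 CPM (colour), for each gene (rows) and mouse (columns), with black boxes around the 2 values that stood apart from their diet group. CD female 1 is above the mean and CD male 2 below it in all 10 genes, and FD female 3 is above it in 9.

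The genes that were lowest in these 2 mice relative to their group were mostly not chaperones. Among the 10 genes of at least 1 CPM furthest below the median of the other CD mice in CD male 2, Xist is off in males, and the others included Arhgap36, the imprinted genes Dlk1 and Dio3, the orphan receptor Gpr101 and Dcn, a collagen-binding proteoglycan at 40.3 against a median of 86.2 CPM. In FD female 2 the first 4 were Y-linked genes, and the others included Ttr, a choroid plexus product, at 3.35 against 10.3 CPM. In CD male 2, 10 of 11 cytosolic Hsp70 and Hsp110 genes, 12 of 14 chaperonin and prefoldin genes and 16 of 21 endoplasmic reticulum chaperones were below the median of the other CD mice, as were 7668 of 14437 genes in all. Of the genes for Hsp90 and its co-chaperones 9 of 15 were below it, but only 5 of 11 unfolded protein response regulators and 1 of 4 heat shock transcription factor genes were. The other CD mice included all the CD females, so sex enters these deviations. In the fit of sex, 12 of 14 chaperonin and prefoldin genes and 17 of 21 endoplasmic reticulum chaperones were lower in males. So were 6 of 11 cytosolic Hsp70 and Hsp110 genes, 10 of 15 genes of Hsp90 and its co-chaperones and 10 of 12 unfolded protein response regulators. In FD female 2 the endoplasmic reticulum chaperones were divided, 11 below and 10 above. Markers of other cells moved in these mice too, since all 11 endothelial and mural genes were above the median of the other CD mice in CD male 2. In the fit of sex, 10 of these 11 were higher in males. In FD female 2, all 10 oligodendrocyte genes were below and all 5 red blood cell genes above the median of the other FD mice. The part of these cells and of sex in the low Hsp90aa1 and Dnajb1 was not tested.

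Some members moved together across mice. Of the 45 pairs, 37 had a positive r in log2 CPM, with a median of 0.30, against 50.7% positive pairs and a median of 0.009 over all pairs of the 14437 genes of at least 1 CPM. An r of at least 0.6 was reached by 15.6% of the member pairs and 8.86% of all pairs. The highest by r were Hspa8 with Hsp90b1 (Pearson's r = 0.77, permutation p = 0.00707, Spearman's rho = 0.65, permutation p = 0.0379) and Hspa5 with Hsp90b1 (r = 0.72, permutation p = 0.0136, rho = 0.70, permutation p = 0.0205). After adjustment over the 45 pairs no pair passed the threshold, and both had an adjusted p of 0.282. With the 2 most distant mice left out, r was 0.71 and 0.61. In the 6 females alone r was 0.86 and 0.65, and after the mean of each diet and sex had been taken away it was 0.90 and 0.70. The highest rho was that of Hsph1 with Hsp90b1 (rho = 0.77, permutation p = 0.00777, adjusted p = 0.35, and r = 0.70). Among cytosolic members, r with Hspa5 was 0.62 for Hsph1, 0.62 for Dnajb1 and 0.30 for Hsp90aa1. High values were therefore not particular to the pair of the endoplasmic reticulum. Hspa1a and Hspa1b, with their nearly identical promoters, gave r = 0.57 (permutation p = 0.0695) and rho = 0.66 (permutation p = 0.0335), with an adjusted p of 0.347 for r. Without FD female 3 and CD female 1, r was 0.70, but without CD female 2 it was 0.37.

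The pair Hspa5 and Hsp90b1 was followed further into the endoplasmic reticulum, where a list of 21 chaperones and their partners was measured. Of the other 20, 18 had a positive r with Hspa5 over the 11 mice and 9 had an r of at least 0.6, compared with 2.09% of 14436 genes. Hsp90b1, the gene of the pair already seen (r = 0.72), is itself counted in the 20, the 18 and the 9. The median r was 0.52 for the list and 0.013 for all genes. Highest was Pdia3, a disulphide isomerase that works with calnexin and calreticulin (r = 0.89, rho = 0.86). It was followed by Manf, a secreted stress-induced factor (0.80, rho = 0.72), Pdia4, another isomerase (0.80, rho = 0.84), Hyou1, the large Hsp70 relative that exchanges the nucleotide of Hspa5 (0.77, rho = 0.69) and Canx, the lectin chaperone calnexin (0.76, rho = 0.76). Without FD male 1 and CD female 1, the 2 mice farthest from the median of Hspa5, r was 0.85 for Pdia3, 0.70 for Manf, 0.85 for Pdia4, 0.43 for Hyou1 and 0.69 for Canx. Syvn1, a ubiquitin ligase of the degradation pathway, had a negative r of -0.26. All values come from the same 11 libraries, and they are a description of them.

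**Figure D5:**
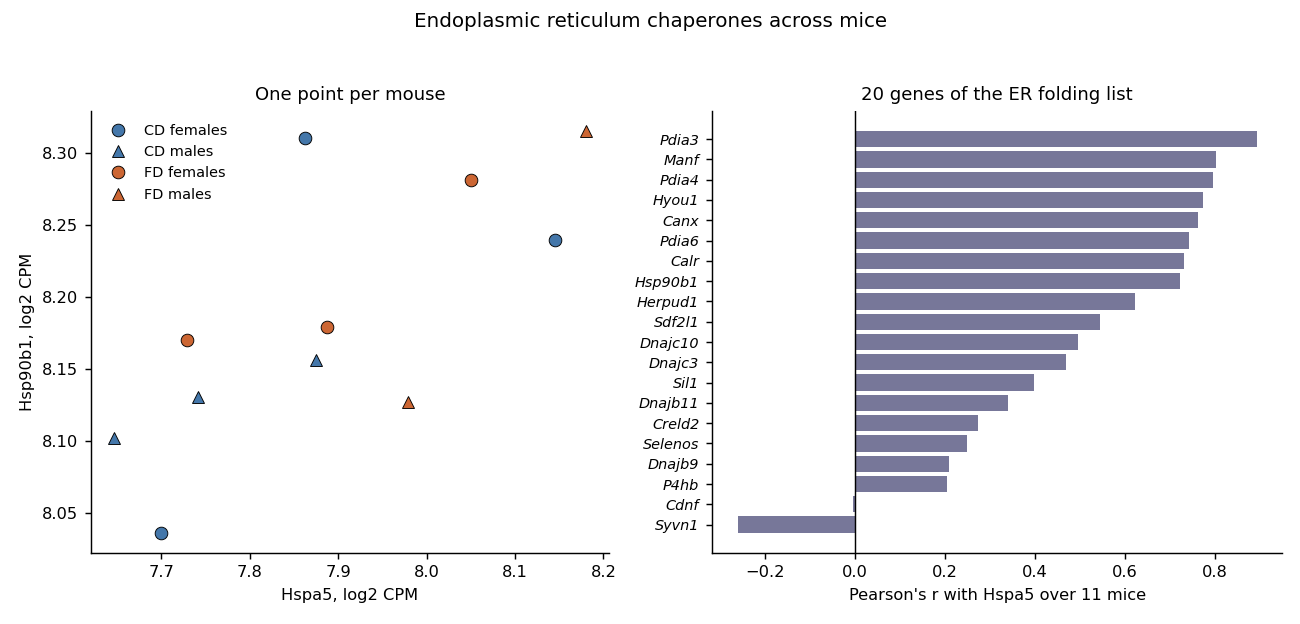
Left, log2 CPM of Hspa5 and Hsp90b1 in each mouse (circles females, triangles males, blue CD, orange FD). Right, Pearson's r with Hspa5 over the 11 mice for the 20 other genes of the endoplasmic reticulum list, which runs from 0.89 for Pdia3 to -0.26 for Syvn1.

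The genes most like a member were searched among all those of at least 1 CPM. For Hspa5 they were Commd6 (r = 0.91), Pdia3 (0.89), Mrpl19 (0.88) and the pseudogenes Gm10819 and Gm1840. For Hsp90aa1 they were Nucb2 (0.91), Rpl35a, Sucla2, Ndfip1 and Parp1 (0.89). For Hspa1b they were Suv39h1 (0.92), Htra4, A530017D24Rik, Ubxn4 and Serf1 (0.85). They were picked as the highest of 14436 values over 11 mice, and they are given as a description.

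The wider chaperone network was examined through 11 lists with 117 genes outside the 10 members, all tested. For diet, edgeR called none of the 117. By list, values were higher in FD mice for 3 of 11 cytosolic Hsp70 and Hsp110 genes, 6 of 15 genes of Hsp90 and its co-chaperones, 6 of 14 J-domain proteins, 6 of 10 small heat shock proteins, 2 of 8 exchange factors and 1 of 6 heat shock transcription factor genes, members included. They were higher for 8 of 24 further targets of heat shock factor 1, 17 of 21 endoplasmic reticulum chaperones, 5 of 12 regulators of the unfolded protein response, 2 of 11 mitochondrial chaperones and proteases and 3 of 14 chaperonin and prefoldin genes. The median log2 fold change of these lists lay between -0.104 and 0.033, against -0.004 for all genes. A pair of further lists served as readouts of activity and stress hormones, with 1 of 17 immediate early genes (median -0.125) and 7 of 12 glucocorticoid-induced genes (median 0.015) higher in FD mice.

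The smallest unadjusted p in these lists belonged to Hspa12b, a distant Hsp70 relative of blood vessels, with 6.82 ± 0.69 CPM in CD and 5.70 ± 0.47 CPM in FD mice (log2 fold change -0.25 ± 0.09, adjusted p = 1 by edgeR). Stub1, the ubiquitin ligase CHIP that acts on Hsp70 clients, had 34.7 ± 2.26 CPM in CD and 31.1 ± 4.35 CPM in FD mice. Manf had 32.0 ± 2.13 and 34.6 ± 2.28 CPM, and Atf6, a sensor of the unfolded protein response, 116 ± 6.63 and 123 ± 6.08 CPM. None of these differences passed the test.

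Between the sexes 6 of the 117 genes of the chaperone and folding lists were called, 2 higher and 4 lower in males, or 5.13% against 6.11% of all genes. With 1 mouse left out this count ran from 0 to 20. Lower in males were the small heat shock protein Cryab (log2 fold change -0.27, 55.1 ± 4.22 CPM in females and 45.9 ± 4.44 CPM in males, adjusted p = 0.0672 by edgeR), the exchange factors Sil1 (-0.24) and Hspbp1 (-0.31) and the mitochondrial protease Clpp (-0.26). Higher in males were Ern1 (0.27), a sensor of the unfolded protein response, and Ranbp2 (0.23), a nuclear pore protein. Larger differences lay outside the chaperones, in the lists of activity and stress hormones, where 11 of 29 genes were called. With 1 mouse left out these 11 became 1 to 13. Of 17 immediate early genes, 7 were lower in males, among them Btg2 (-0.56, adjusted p = 0.00312 by edgeR), Npas4 (-0.74) and Ier2 (-0.71), and of the glucocorticoid-induced genes Mt1 and Mt2 were lower and Sgk1 and Sult1a1 higher. The microglial genes C1qa, C1qb and C1qc were also lower in males. The part of that cell type in the lower Cryab was not tested.

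Copies of the members were looked for among annotated pseudogenes. There were 9 with at least 100 bases matching at 80% identity or more, of which 7 were tested and none was called for diet. The fitted value was higher in FD mice for all 7, against 48.2% of all genes. Of these, Hsp25-ps1 and Gm8355 were nearly level, with log2 fold changes of 0.023 ± 0.678 and 0.105 ± 0.565 on 24 and 30 reads in all. The genes that the paper lists at the top for diet are mostly predicted genes, all with positive log2 fold changes. Whether the direction was particular to copies of the members, among pseudogenes in general, was not tested. The most abundant copies were 2 of Hsp90aa1. Gm12346, 99.468% identical over 2255 bases, had 13.7 to 17.8 CPM in CD mice and 15.0 to 20.5 CPM in FD mice, 8.03% of the counts of its parent (log2 fold change 0.15 ± 0.09). Gm5844, 98.547% identical over 2202 bases, held 3.38% of the parent's counts and had a log2 fold change of 0.13 ± 0.09. Summed with its copies, a setting chosen after seeing the data, Hsp90aa1 had a log2 fold change of -0.02 ± 0.05.

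The 4 copies of Hspa8 that were found had few reads. Gm9436, 86.326% identical, had 0, 0, 1, 1, 3 and 5 reads in the CD mice and 5, 5, 7, 8 and 15 in the FD mice. As CPM the groups did not overlap, as for 0.505% of all genes, with 0.0671 ± 0.0621 CPM in CD and 0.414 ± 0.224 CPM in FD mice. Its log2 fold change was 2.43 ± 0.60 (exact permutation p = 0.004329, two-sided), and the adjusted p of 0.372 by edgeR missed the threshold. Gm15604 and Gm13437 had log2 fold changes of 0.91 ± 0.48 and 1.35 ± 0.73 on 33 and 18 reads in all, with adjusted p-values of 1. For Gm15604 the CPM did not overlap between the groups either, with a highest CD value of 0.135 and a lowest FD value of 0.141. Its exact permutation p, unadjusted, was 0.006494. Summed with these 4 copies, Hspa8 had a log2 fold change of -0.06 ± 0.08. Gm15459, which holds 1642 of the 1870 shared windows of Hspa8, was not among them, so the sum does not cover it.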

How the data were processed

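RNA from whole hippocampi was sequenced as single reads of 50 bases. After trimming, the authors used STAR with mm10 (GRCm38) and counted uniquely aligned reads on each gene. The study names featureCounts, but each table ends in totals named as HTSeq names them, so the program is uncertain. The deposited values are these raw counts, 1 table a mouse. The annotation release and strand setting are not given in the sources used here. Reads with several alignments were left out by the authors, which lowers the counts of genes with close copies. Ensembl identifiers were given symbols and positions from GENCODE M21 (95.1% of 38293 matched). The members and lists were chosen with earlier results of these data known.

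The counts were tested with edgeR 4.0.16 in R 4.3.3 (TMM normalization, at least 10 counts in all, quasi-likelihood test, Benjamini-Hochberg adjustment, threshold 0.1), with diet alone, with sex and diet, and with their interaction. The study itself used DESeq2, with the same threshold of 0.1. The fits and the permutation tests were tested on simulated data. DESeq2 1.42.0, other normalizations and filters, sex as covariate, fits within 1 sex and fits without 1 mouse were alternatives. Log2 CPM used a prior count of 2. Single values were compared by exact permutation, and correlations with 100000 permutations. The smallest p that the exact test of diet can give is 0.002165. Copies were found with blastn 2.17.0 against GENCODE transcripts, and promoters were taken from RefSeq.

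Deviations from the diet means correlated at 0.307 to 0.54 within the 5 pairs of CD and FD mice that share sex and number in the labels, so they were treated as pairs in a replicate block, which leaves out CD male 3. With the mean of each sex also removed, the correlation was 0.00515 to 0.386, and whether a number marks a litter or batch is not given in the sources used here.

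Named genes were the 10 members, up to 3 other genes per list with the smallest p for diet and for sex, called copies or else the 3 with the smallest p, the 5 genes most correlated with Hspa1b, Hsp90aa1 and Hspa5, and up to 10 genes furthest from the median of the group in a mouse that stood apart. Genes called in a list are named beyond this rule, after their values were seen. Precision rests on 11737554 to 44447006 counts per mouse.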

Additional observations from a re-analysis of the deposited data

Results flagged for a closer look

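A mouse stood apart from its diet group in 2 of 20 combinations of gene and group, where chance gives about 1 in 20. Hsp90aa1 was low in CD male 2, with a gap of 0.634 of the range of the 6 CD mice in log2 CPM, and this mouse was also the lowest CD mouse for Hspa5 and Hsph1. Dnajb1 was low in FD female 2, with a gap of 0.714 of the range of the 5 FD mice, just above the critical value, again in log2 CPM. On the linear CPM scale the gaps were 0.619 and 0.695, neither above the critical value, and with RLE normalization that of Dnajb1 was not above it either. Without CD male 2 the edgeR log2 fold change of Hsp90aa1 was -0.06, and without FD female 2 that of Dnajb1 was 0.06.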

How the results depend on the processing

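No member was called for diet or for the interaction under any alternative, and for sex the count was 0 to 1 with 1 mouse left out, the 1 being Hspa1a without CD female 2, where 15.8% of all genes were called. The count of members with an exact p under 0.05 for diet was 0 to 1 with 1 mouse left out, the 1 being Hsp90aa1 without CD male 2. By edgeR the unadjusted p of Hspa5 was 0.0135 without CD female 1 and 0.0323 without FD female 1. Correlated pairs past the threshold numbered 0 to 2, both of them without CD female 2. A single mouse stood apart in 1 combination on the CPM scale (Bag3 in CD female 1) and in 1 with RLE normalization (Hsp90aa1 in CD male 2) in place of 2. The 17 genes called between the sexes over all 13 lists, readouts of activity and stress hormones included, became 1 to 33 with 1 mouse left out. The cause was not tested in any of these.

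Several log2 fold changes changed sign, none of them called, and not all were near 0. Over all mice the diet values were 0.13 for Hspa5, 0.12 for Hspa1b, 0.11 for Hspa1a and 0.11 for Hspb1. In females alone the diet values were -0.025 for Hspa1b, -0.020 for Hspa5, -0.028 for Dnajb1 and -0.12 for Hspb1, and in males alone they were 0.052 for Hsph1, 0.0072 for Hsp90aa1 and 0.019 for Bag3. With the replicate block Hspb1 was -0.030, and the block changed no call of a member but moved the count over all genes from 14 to 23. For sex, Hspa5 was 0.0050 with RLE, 0.0052 with DESeq2 and 0.0004 with at least 10 counts in every mouse. With 1 mouse left out, diet values ran from -0.035 to 0.25 for Hspa1a, -0.035 to 0.018 for Hsph1, -0.027 to 0.075 for Dnajb1, -0.016 to 0.21 for Hspb1 and -0.047 to 0.033 for Bag3. Sex values ran from -0.11 to 0.061 for Hspa1b, -0.076 to 0.083 for Hspa5, -0.094 to 0.013 for Hspa8, -0.040 to 0.013 for Hsp90aa1, -0.075 to 0.0004 for Hsp90b1 and -0.0073 to 0.13 for Dnajb1.

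Hspb1 gave no value with at least 10 counts in every mouse, and Hspa1a none of its own where it was summed with Hspa1b. For sex, DESeq2 gave no adjusted p for Hspa1a or Hspb1. Over all genes, the diet count was 1 to 23 and the sex count 18 to 3244 across the alternatives. Depth limits Hspb1 and the Hspa1 genes, which had as few as 9 and 18 reads in a mouse.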
